A study of Mus musculus with 6 samples.

Results

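The genes described here encode the receptor for melanin-concentrating hormone (MCH) and the G protein and phospholipase C route that this receptor is known to use. They were chosen by name and not by a measured value, but with earlier results of these data known. They include the receptor gene Mchr1 and the Gi/o alpha subunit genes Gnai1, Gnai2, Gnai3 and Gnao1. The Gq/11 alpha subunit genes are Gnaq and Gna11, and the phospholipase C beta genes are Plcb1, Plcb3 and Plcb4. Of the 10 names, 9 had a row among the 19353 genes of the table, and Gnai1 was not analysed here. All 9 passed the filter on low counts and were among the 13662 genes tested.

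RNA was sequenced from purified primary mesenchymal stem cells of the bone marrow of wild-type mice, progenitors in the marrow stroma from which osteoblasts, adipocytes and chondrocytes can arise. All 6 samples were kept in an osteogenic medium with 100 nM dexamethasone, 10 mM β-glycerophosphate, 50 µM ascorbic acid and 10% fetal bovine serum. In the 3 MCH samples the medium also held 0.5 µM MCH, and the 3 Control samples had the same medium without it. Sampling was on day 9 of induction by the titles of the samples and on day 8 by the design text. The labels used here give no strain or age for the mice and do not say whether the replicates are from different mice or dishes. The p-values therefore measure the spread between these replicates only, and it may be technical. The 3 MCH data columns carry MCH in their names. The other 3 carry no group name and were taken as Control, so every direction below rests on those names.

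MCH is a peptide best known from hypothalamic neurons that act on feeding and sleep. Its receptor MCHR1, which mice have without the related MCHR2 found in humans, is a rhodopsin-like receptor that often sits on the primary cilium. It couples to Gi/o proteins, which inhibit adenylyl cyclase and free beta-gamma dimers, and to Gq/11 proteins, which activate phospholipase C beta, an enzyme that makes the messengers IP3 and diacylglycerol.

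The receptor gene was lower with MCH, as were a phospholipase C gene and a Go gene, while no gene of the route's 9 passed the threshold as higher. Of the 9 genes, 3 fell (Mchr1, Plcb3 and Gnao1), 0 rose and 6 did not pass the threshold (an adjusted p under 0.05 over all tested genes by the quasi-likelihood test of edgeR with Benjamini-Hochberg adjustment). At an unadjusted p under 0.05 these counts were also 3 and 0, as they were by DESeq2 and by limma-voom. Over all tested genes 5.4% were lower and 3.64% were higher, against 33.3% and 0 of these 9. In 4 of the 9 genes (44.4%) all MCH libraries lay below all Control libraries, which was so for 16.6% of all tested genes. In 0 of the 9 they all lay above, against 16.1% of all tested genes. The median log2 fold change of the 9 genes, MCH minus Control, was -0.12, and that of all tested genes was 0.0. Fold changes of 6 of the 9 were negative, against 49.7% of all tested genes.

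**Figure D1:**
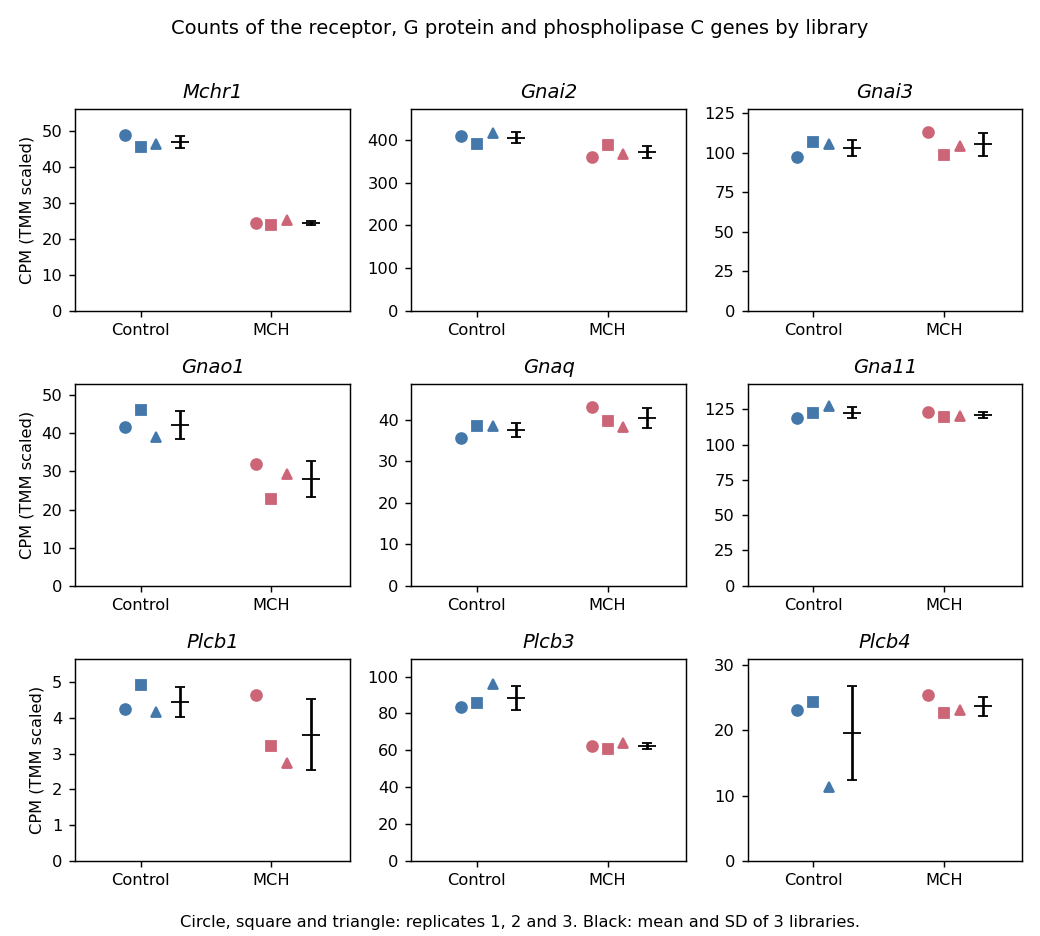
Read counts scaled for library size (CPM, with TMM factors) of the 9 genes in each library, with 1 panel per gene and the vertical axis from 0; symbols are replicates and black bars are the mean and SD of 3 libraries. The MCH points of Mchr1, Plcb3, Gnao1 and Gnai2 all lie below the Control points, those of the other 5 genes overlap, and Control replicate 3 lies apart in Plcb4.

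**Figure D2:**
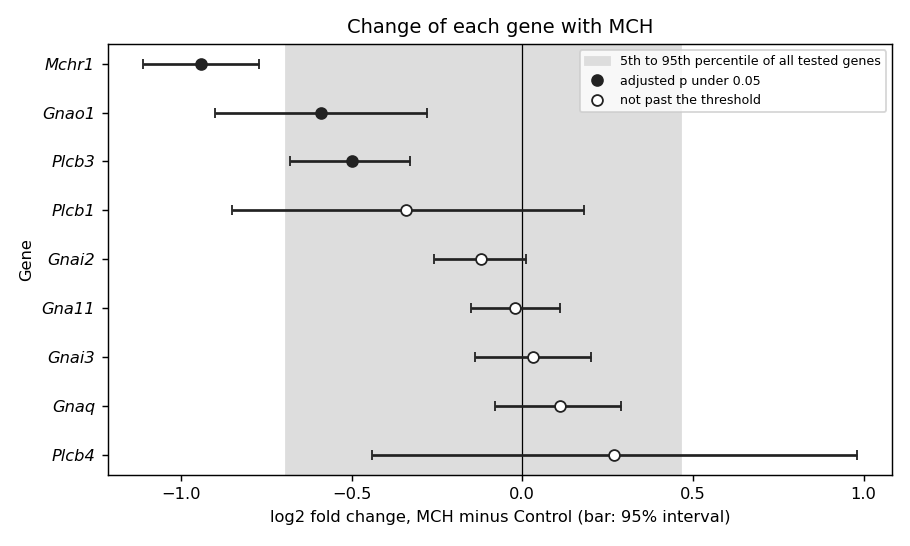
Log2 fold change of each gene, MCH minus Control, with its 95% interval; filled points passed an adjusted p of 0.05, and the grey band runs from the 5th to the 95th percentile of all tested genes (-0.69 to 0.47). Mchr1 lies outside the band, Plcb3 and Gnao1 lie inside it, and the widest intervals are those of Plcb4 and Plcb1.

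Mchr1 (ENSMUSG00000050164, chr15:81235499-81238963 on the plus strand of GRCm38) was detected in every library with 417 to 872 reads. In CPM, the read count after scaling for library size, Control replicates 1, 2 and 3 stood at 49.0, 45.6 and 46.6 and MCH replicates 1, 2 and 3 at 24.5, 24.0 and 25.2. The groups were far apart and each was tight. The spread between MCH libraries (coefficient of variation 2.35%) was below the 4.85% that counting alone would give, and in Control it was 3.66% against 3.48%. The level with MCH was 52.2% of that in Control, with a 95% interval of 46.4% to 58.6%. The log2 fold change was -0.94 ± 0.07 (SE; edgeR adjusted p = 0.000656), rank 32 of all tested genes by p, and 2.64% of tested genes had a lower fold change. The call held in all 6 fits with 1 library left out, where the fold change ran from -0.96 to -0.91 and the highest edgeR adjusted p was 0.00697. In the authors' deposited table Mchr1 had p = 1.7e-07 and q = 3.26e-05 but no UP or DOWN mark. The authors' Control mean was 1.93 times their MCH mean, and each of the 243 genes they marked had a ratio of at least 2. In bulk RNA, fewer cells that express the receptor and less receptor RNA per cell cannot be told apart.

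No part of the annotated Mchr1 exons was shared with another gene: 0 of 2140 windows of 50 bases recurred in a transcript of another gene. The 250 bases before the RefSeq start of Mchr1 (GRCm38.p6, chr15:81235249-81235498, plus strand) are shown because the receptor had the largest fall of the 9 genes. Capitals mark an E-box, CACGTG.
Mchr1: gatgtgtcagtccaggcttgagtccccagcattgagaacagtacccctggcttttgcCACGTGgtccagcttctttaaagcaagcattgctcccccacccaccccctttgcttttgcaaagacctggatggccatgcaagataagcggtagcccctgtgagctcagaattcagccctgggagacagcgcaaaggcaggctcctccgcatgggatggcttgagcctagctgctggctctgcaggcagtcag
The E-box lies 193 bases before the start, and 6.0% of 32851 RefSeq promoter windows of this length hold one on either strand. The window held none of the other motifs searched on both strands, which were the AP-1 site TGANTCA, the cAMP response element TGACGTCA, the GC box GGGCGG, the CCAAT box CCAAT and the TATA box TATAAA. Its CpG content, observed over expected, was 0.2, against a median of 0.37 over all windows. The upstream windows of the other 7 genes matched to RefSeq lay between 0.73 and 1.23, apart from the second start of Plcb4 (0.26), and Gnai2 had no matching entry. A match of letters is a description and not a binding site.

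The 6 tested genes of at least 10 CPM that ran most like Mchr1 over the 6 libraries, by Euclidean distance of centred log2 CPM among 9491 candidates, were Mmp19, a matrix metalloproteinase, Csgalnact1, an enzyme of chondroitin sulfate synthesis, Pi15, a secreted peptidase inhibitor, Ssc5d, a secreted scavenger receptor family protein, Gas1, a surface co-receptor for hedgehog, and Spp1, the matrix protein osteopontin. Mmp19 lay nearest, at a distance of 0.0802, and stood at 97.1 ± 1.83 CPM in Control and 51.9 ± 1.55 CPM with MCH (SD, n = 3). The others lay at 0.143 to 0.178. Spp1, the most abundant of them, stood at 1050.0 ± 20.2 and 502 ± 13.4 CPM. These genes were picked for their likeness to Mchr1, so their change is a description. Of the other 8 genes of the route, Plcb3 (0.567) and Gnao1 (0.572) lay nearest to Mchr1 and Plcb4 (1.8) lay farthest.

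The alpha subunits differ in the end that faces the receptor. The last 30 coding bases of each alpha subunit gene are shown for transcripts with a consensus coding sequence (CCDS) entry, because this end carries much of the choice between receptors and holds the cysteine that pertussis toxin modifies in Gi/o proteins. They come from GENCODE M21 transcripts on GRCm38, with the codon 4 from the end in capitals.
Gnai2 (chr9:107615638-107615667, minus strand): aagaacaacctgaaggacTGTggcctcttc
Gnai3 (chr3:108109425-108109454, minus strand): aaaaacaacttaaaggaaTGTgggctttat
Gnao1 end A (chr8:93967023-93967052, plus strand): gccaacaatctccggggcTGCggcttgtac
Gnao1 end B (chr8:93956220-93956249, plus strand): gccaaaaacctacggggcTGTggactctac
Gnaq (chr19:16383362-16383391, plus strand): cagctgaacctgaaggagTACaatctggtc
Gna11 (chr10:81530798-81530827, minus strand): cagctgaacctgaaggagTACaacctggtg
The 4 Gi/o ends shown carry a cysteine codon at this place, TGT or TGC, and the Gq/11 ends carry TAC. Annotated ends without a CCDS entry, 1 of Gnai2 and 2 of Gnao1, are not shown and carry GAA, ACT and TTG there. Gnaq and Gna11 shared 28 of the 30 bases and Gnai2 and Gnai3 shared 22. Ends A and B of Gnao1, which belong to different transcripts of 1 gene, shared 23, and Gnai2 and Gnaq shared 18. The deposited values are per gene, so these Gnao1 transcripts were not separated.

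Gnai2 (ENSMUSG00000032562, chr9:107614125-107635367, minus strand), which encodes a widely expressed Gi subunit, had the highest level of the 9 genes. Control replicates 1, 2 and 3 stood at 409.9, 391 and 417 CPM and MCH replicates 1, 2 and 3 at 361, 389 and 366 CPM. All MCH libraries lay below all Control libraries, but MCH replicate 2 came within a few CPM of Control replicate 2. The level with MCH was 91.7% of Control (95% interval 83.3% to 101%), and the fold change did not pass the threshold (log2 -0.12 ± 0.06, edgeR adjusted p = 0.228). Gnai3 (ENSMUSG00000000001, chr3:108107280-108146146, minus strand), a second widely expressed Gi subunit gene, stood at 97.1, 107 and 105 CPM in Control and at 113, 98.3 and 104 CPM with MCH. Its groups overlapped throughout. The MCH level was 102% of Control, and the 95% interval of 90.7% to 115% leaves room for changes of either sign (log2 0.03 ± 0.07, edgeR adjusted p = 0.838).

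Gnao1 (ENSMUSG00000031748, chr8:93809966-93969388, plus strand) encodes Go, the main G protein alpha subunit of neurons. It stood at 41.5, 46.0 and 38.9 CPM in Control replicates 1, 2 and 3 and at 32.0, 22.7 and 29.4 CPM in MCH replicates 1, 2 and 3. The groups did not overlap, and MCH replicate 2 was lowest. The MCH level was 66.4% of Control (95% interval 53.5% to 82.5%), a log2 fold change of -0.59 ± 0.13 (edgeR adjusted p = 0.0363). This call depended on single libraries. It held without MCH replicate 1 (edgeR adjusted p = 0.0221), and it was lost without MCH replicate 2 (0.0724), MCH replicate 3 (0.107), Control replicate 1 (0.0739), Control replicate 2 (0.121) or Control replicate 3 (0.0904), as adjusted p of the same test. The spread between MCH libraries was 17.1%, against 4.54% from counting. It was also lost with limma on log2(FPKM + 1) (adjusted p = 0.0556), with a non-robust edgeR fit (0.0504) and with edgeR offsets for length and GC content (0.0618; log2 -0.45), the last added after seeing the data. In the authors' deposited table its q was 0.0833.

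Of 14 markers of neurons and Schwann cells, 10 had a row. Their summed level was 3.71 to 4.58 CPM in Control and 2.81 to 3.65 CPM with MCH. The neuronal genes Snap25, Syt1, Nefl and Map2, which define such cells, had 0 to 5, 0 to 3, 0 to 1 and 0 to 1 reads per library, while Gnao1 had 402 to 880. Gnao1 shares 284 exon bases, 2.57% of its own, with the antisense gene 4930488L21Rik, which had 0 to 2 reads per library. Reads of the 2 genes cannot be told apart there, since the strand setting of the counting is not given in the sources used here.

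Both Gq/11 genes had nearly the same level with and without MCH. Gnaq (ENSMUSG00000024639, chr19:16132831-16387463, plus strand) stood at 35.6, 38.4 and 38.5 CPM in Control and 43.0, 39.7 and 38.3 CPM with MCH. MCH replicate 1 was highest, and MCH replicate 3 fell inside the Control range. The MCH level was 108% of Control (95% interval 94.7% to 122%; log2 0.11 ± 0.08, edgeR adjusted p = 0.442). Gna11 (ENSMUSG00000034781, chr10:81528724-81545190, minus strand) stood at 119, 122 and 127 CPM in Control and 123, 119 and 119.9 CPM with MCH. Its groups overlapped, and its interval was among the narrowest of the 9 genes, with an MCH level of 98.5% of Control (95% interval 90.1% to 108%; log2 -0.02 ± 0.06, edgeR adjusted p = 0.837). A p that misses the threshold does not show equal levels, and for these genes the intervals give the range that the libraries allow.

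Plcb3 (ENSMUSG00000024960, chr19:6953714-6969759, minus strand) encodes a phospholipase C that both Gq alpha subunits and free beta-gamma dimers can activate. Control replicates 1, 2 and 3 stood at 83.2, 85.9 and 95.9 CPM and MCH replicates 1, 2 and 3 at 62.3, 60.8 and 63.9 CPM. The MCH libraries were close together and well below the lowest Control library. The MCH level was 70.5% of Control (95% interval 62.6% to 79.5%), a log2 fold change of -0.50 ± 0.07 (edgeR adjusted p = 0.00869). The call held in all 6 fits with 1 library left out, with fold changes from -0.54 to -0.44 and a highest edgeR adjusted p of 0.0423. In the authors' deposited table Plcb3 had q = 0.0469. Its gene shares 22 exon bases with Ppp1r14b on the opposite strand, which had 756 to 1293 reads per library.

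The 250 bases before the RefSeq start of Plcb3 (GRCm38.p6, chr19:6969815-6970064, minus strand) are shown to set beside those of Mchr1, the other gene whose call held in every such fit. Capitals mark an AP-1 match, TGAGTCA, and GC boxes, GGGCGG or its reverse complement CCGCCC.
Plcb3: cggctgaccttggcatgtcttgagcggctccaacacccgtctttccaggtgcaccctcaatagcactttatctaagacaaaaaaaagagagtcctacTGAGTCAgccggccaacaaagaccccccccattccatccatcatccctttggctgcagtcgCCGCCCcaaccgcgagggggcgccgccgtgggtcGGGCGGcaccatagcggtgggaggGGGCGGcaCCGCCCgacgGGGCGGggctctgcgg
The AP-1 match lies 153 bases before the start, and 6.7% of all windows hold one. The window holds 5 GC boxes, and 32.7% of all windows hold at least 1. The Mchr1 and Plcb3 windows had none of the 6 motifs in common. That of Gnao1, the remaining gene that fell, held none of the 6.

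Plcb4 (ENSMUSG00000039943, chr2:135659011-136014593, plus strand), a phospholipase C best known from brain and retina, stood at 23.2, 24.3 and 11.3 CPM in Control and 25.3, 22.6 and 23.1 CPM with MCH. Control replicate 3 was low and stood apart from the other 5 libraries, with 194 reads against 377 to 464. The log2 fold change was 0.27 ± 0.29 (edgeR adjusted p = 0.6) and became -0.002 without Control replicate 3. The MCH level was 121% of Control with a 95% interval of 74.0% to 198%, the widest of the 9 genes. Plcb1 (ENSMUSG00000051177, chr2:134786067-135475258, plus strand), the lowest of the 9, stood at 4.24, 4.92 and 4.18 CPM in Control and 4.64, 3.22 and 2.73 CPM with MCH. MCH replicate 1 lay inside the Control range and the other MCH libraries lay below it. With 47 to 94 reads per library, the MCH level was 79.2% of Control (95% interval 55.4% to 113%; log2 -0.34 ± 0.22, edgeR adjusted p = 0.378). Plcb2, the phospholipase C beta gene of blood cells, had 0 to 3 reads per library.

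To compare levels between genes, the deposited FPKM values were used, which divide by gene length and library size. In Control the order was Gnai2 (58.7 ± 1.64 FPKM; SD, n = 3), Gnai3 (31.7 ± 2.09), Gna11 (24.0 ± 1.08), Mchr1 (21.6 ± 0.437), Plcb3 (21.1 ± 1.76), Gnaq (5.66 ± 0.335), Gnao1 (3.92 ± 0.371), Plcb4 (1.68 ± 0.619) and Plcb1 (0.272 ± 0.0284). Mchr1 and Plcb3 overlapped over libraries, and all other neighbours in the order were apart. Mchr1 stood at the 79.2 percentile of tested genes by its mean FPKM over all libraries, and Gnai2 at the 93.6 percentile. With MCH the receptor moved below Plcb3, at 11.2 ± 0.357 against 14.8 ± 0.517 FPKM. Gnao1 (2.59 ± 0.486 FPKM) then overlapped Plcb4 (2.02 ± 0.166 FPKM).

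These levels depend on the gene length. The length implied by the deposited counts and FPKM matched the GENCODE M21 exons for Mchr1 (2188 and 2189 bases) and Gnai3 (3262 in both), but not for Plcb3 (4201 and 6960 bases) or Gnai2 (6928 and 3779 bases). Per kilobase of M21 exons, Mchr1 stood above Plcb3 in both groups, at 21.5 against 12.7 CPM in Control and 11.2 against 8.95 CPM with MCH. Gnai2 stood at 107 CPM per kilobase in Control and 98.5 with MCH. The choice of length scales both groups of a gene alike.

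**Figure D3:**
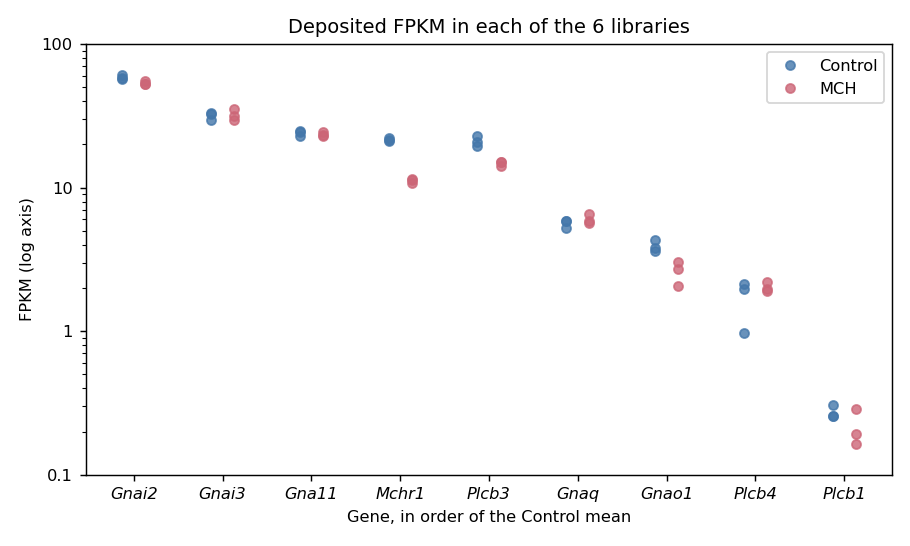
Deposited FPKM of the 9 genes in each library on a log axis, ordered by the Control mean, with Control and MCH libraries side by side. Levels run from 58.7 FPKM for Gnai2 to 0.272 FPKM for Plcb1 in Control, and Mchr1 lies beside Plcb3 in Control and below it with MCH.

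Shares, sums and ratios between genes rest on the implied lengths and would differ with M21 exon lengths. Gnai1 is not part of the sums. Per kilobase of M21 exons, Gnai2, Gnai3 and Gnao1 stood at 107, 31.6 and 3.81 CPM in Control. By FPKM, Gnai2 held 62.3 ± 1.70% of the summed level of these Gi/o genes in Control and 60.7 ± 2.71% with MCH. Gnai3 held 33.6 ± 1.47% and 36.4 ± 2.24%. The share of Gnao1 was 4.16 ± 0.409% in Control and 2.93 ± 0.487% with MCH, without overlap between the groups. The summed Gi/o level was 94.3 ± 2.71 FPKM in Control and 88.2 ± 2.72 FPKM with MCH, with MCH replicate 1 close to Control replicate 1 (91.3 and 91.4 FPKM). Gna11 made up most of the Gq/11 level, 80.9 ± 0.387% in Control and 79.5 ± 0.711% with MCH. The summed Gq/11 level was 29.6 ± 1.40 and 29.5 ± 1.33 FPKM.

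Plcb3 made up most of the phospholipase C beta level by FPKM, 91.4 ± 3.02% in Control and 86.9 ± 0.964% with MCH. That share depends on the length used. Per kilobase of M21 exons, Plcb3 stood at 12.7 CPM in Control, Plcb4 at 2.18 and Plcb1 at 0.400. The summed level was 23.0 ± 1.26 FPKM in Control and 17.0 ± 0.674 FPKM with MCH, and the groups did not overlap. Relative to Mchr1, the mean level of each alpha subunit gene was higher with MCH. Mchr1 fell more than each of them, so these ratios restate its fall and are not a separate result. The ratio of Gnai2 to Mchr1 was 2.72 ± 0.0906 in Control and 4.79 ± 0.278 with MCH, and that of Gna11 to Mchr1 was 1.11 ± 0.0687 and 2.10 ± 0.0607. For both ratios the groups were apart. The ratio of Gnao1 to Mchr1, 0.182 ± 0.0197 and 0.231 ± 0.0372, overlapped between the groups. RNA ratios of this kind say nothing of protein amounts.

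The rest of the route was described by 7 lists with 102 names, of which 92 had a row and 77 were tested. Of these, 3 were lower (3.9%) and 2 were higher with MCH, and 72 did not pass. Over all tested genes 5.4% were lower and 3.64% were higher, so the lists together held no larger share of lower genes. In the list of alpha subunits outside the 9 genes 0 of 7 tested genes passed with edgeR, DESeq2 or limma-voom, and 1 was lower and 0 higher at an unadjusted p under 0.05. The lower gene was Gnal, with 12 to 38 reads per library (log2 -0.97 ± 0.29, edgeR adjusted p = 0.0759). Its MCH libraries all lay below its Control libraries. Gnas, the Gs subunit gene, had a log2 fold change of 0.08 ± 0.07 (edgeR adjusted p = 0.501) and Gna13 one of 0.14 ± 0.06 (edgeR adjusted p = 0.204). Of 13 tested beta and gamma subunit genes 1 passed, Gng10, a gamma subunit gene. It was higher with MCH by 0.56 ± 0.09 (edgeR adjusted p = 0.0122), and the call was lost without Control replicate 2 or MCH replicate 3, where the adjusted p reached 0.0535. The main beta subunit gene Gnb1 was at 382 CPM in Control and 397 CPM with MCH (log2 0.05 ± 0.05).

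Of 18 tested genes that act after phospholipase C beta or beside it, 2 were lower and 0 higher, and the list median was -0.16. Itpr3, an IP3 receptor that releases calcium from the endoplasmic reticulum, was lower by a log2 change of -0.43 ± 0.10 (edgeR adjusted p = 0.0438), from 129 to 95.8 CPM. Its call held without MCH replicate 1 and was lost without any other single library (highest adjusted p = 0.154). Dgka, a kinase that removes diacylglycerol, had a change of -0.44 ± 0.09 (edgeR adjusted p = 0.0298), from 21.7 to 16.0 CPM, and lost its call without any 1 of the 6 libraries (highest adjusted p = 0.103). The protein kinase C gene Prkca stood at 69.9 and 68.9 CPM (log2 -0.02 ± 0.08).

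Among 6 tested effectors of Gi/o proteins 1 was lower. Adcy6, an adenylyl cyclase that Gi inhibits, stood at 130 CPM in Control and 100.5 CPM with MCH (log2 -0.37 ± 0.08, edgeR adjusted p = 0.0298). It kept its call without MCH replicate 1 or Control replicate 1 and lost it without any of the other 4 libraries (highest adjusted p = 0.124). Of 11 tested receptor kinases, arrestins and G protein chaperones 0 passed with edgeR, DESeq2 or limma-voom, and 0 had an unadjusted p under 0.05, among them Grk6 (log2 0.06 ± 0.09) and Gpsm2 (0.17 ± 0.08). Of the peptide and the receptor's partner proteins 3 were tested and 0 passed with these tools, with 1 lower at an unadjusted p under 0.05. That gene was Rgs8, with 5 to 31 reads per library (log2 -1.58 ± 0.49, edgeR adjusted p = 0.0846). Its MCH libraries all lay below its Control libraries. Ncdn, the neurochondrin gene, stood at 42.7 and 43.0 CPM, and Ppl, the periplakin gene, at 2.72 and 2.33 CPM. Of 19 genes of receptor transport into the cilium, all tested, 1 passed: Bbip1, a BBSome subunit gene, was higher by 0.44 ± 0.11 (edgeR adjusted p = 0.042). That call held without MCH replicate 1 and was lost without any other single library (highest adjusted p = 0.151).

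**Figure D4:**
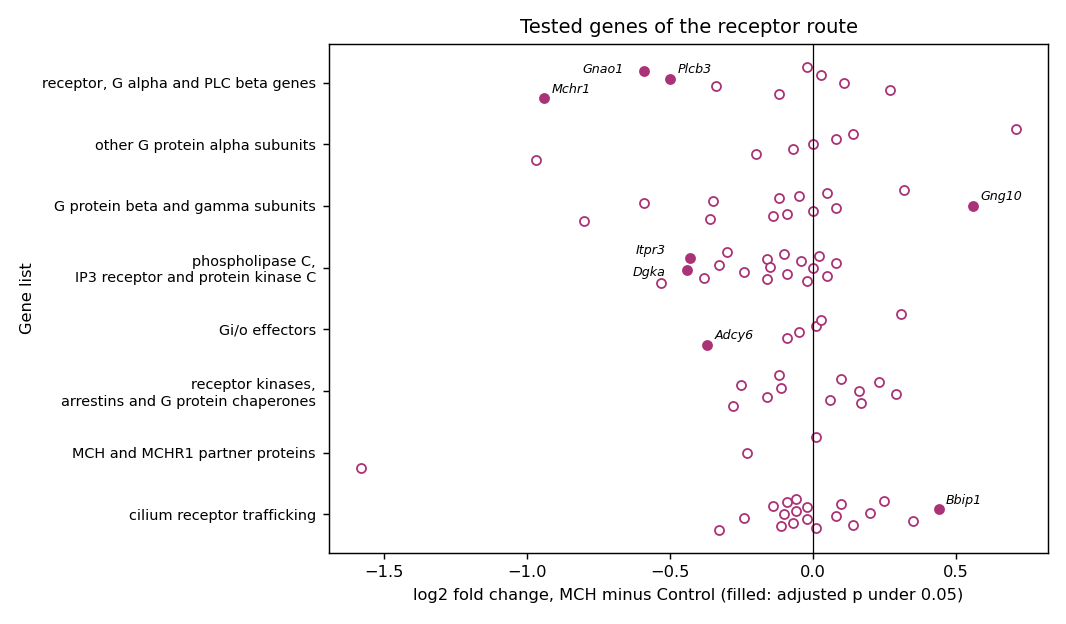
Log2 fold change of each tested gene, MCH minus Control, for the 9 genes and the 7 other lists of the route; each point is a gene, filled where its adjusted p was under 0.05. The 5 filled points outside the top row are Gng10, Itpr3, Dgka, Adcy6 and Bbip1, and most open points lie within 0.5 of 0.

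The libraries held 16521980 to 18803949 counted reads, and within each group every pair of libraries was further apart than counting noise allows (16.1 to 27.3 as chi-square per gene). On the first principal component MCH replicate 1 was the MCH library closest to Control, at -10.9 against -32.3 and -24.8, with Control at 18.9 to 25.5. All 12 stromal markers were tested, and 5 of them (41.7%) fell (Ly6a, Nt5e, Pdgfra, Pdgfrb and Col1a1) and 0 rose. Over all tested genes 5.4% were lower and 3.64% were higher. The summed level of the stromal list was 7440 to 8005 CPM in Control and 5576 to 5946 CPM with MCH. Col1a1 made up most of this sum, at 5172 CPM in Control and 3813 CPM with MCH. The other 7 markers did not pass. Among these, log2 fold changes were 0.08 ± 0.08 for Itgb1, 0.04 ± 0.16 for Eng, -0.09 ± 0.07 for Cxcl12 and -0.30 ± 0.38 for Cd44. Vcam1 had 0.48 ± 0.14, with all MCH libraries above all Control libraries. The stromal surface genes Thy1 (36 to 59 reads per library) and Lepr (5 to 20) were low throughout. Macrophage markers summed to 37.9 to 45.2 CPM in Control and 47.6 to 82.1 CPM with MCH. Among their list, Cd68 had 549 to 934 reads per library (log2 0.47 ± 0.13, edgeR adjusted p = 0.0655), Lyz2 52 to 176, Csf1r 43 to 95, Ctss 5 to 92 and the leukocyte gene Ptprc 0 to 2. Cd68 made up most of the sum, at 33.1 CPM in Control and 45.9 CPM with MCH. Adgre1 had 0 to 11 reads per Control library and 2 to 50 per MCH library. In the same order C1qb had 0 to 9 and 0 to 31, and C1qc 0 to 1 and 2 to 27. Itgam had 0 to 6 and C1qa 0 to 3 reads over all libraries. Lymphocyte markers summed to 2.64 to 3.42 and 7.39 to 9.33 CPM, and 1 of their 6, Cd3e, was tested and rose. Summed levels of endothelial markers (5.03 to 7.19 CPM in Control, 3.67 to 5.97 CPM with MCH) and adipocyte markers (123.5 to 137.5 and 118.7 to 143.1 CPM) overlapped between the groups. Of the 4 tested adipocyte markers 1 rose, Lpl (log2 0.43 ± 0.10, edgeR adjusted p = 0.0344). Summed levels of granulocyte and erythroid markers were at most 2.61 CPM. Of 4 tested nuclear-retained RNAs, Neat1 and Malat1 fell (50%, against 5.4% of all tested genes). The nuclear list summed to 2470 to 2969 CPM in Control and 1821 to 1933 CPM with MCH. In their summed levels the stromal, nuclear and neuronal lists were lower with MCH without overlap, and the macrophage and lymphocyte lists were higher without overlap. Their part in the falls of Mchr1, Plcb3 and Gnao1 was not tested.

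**Figure D5:**
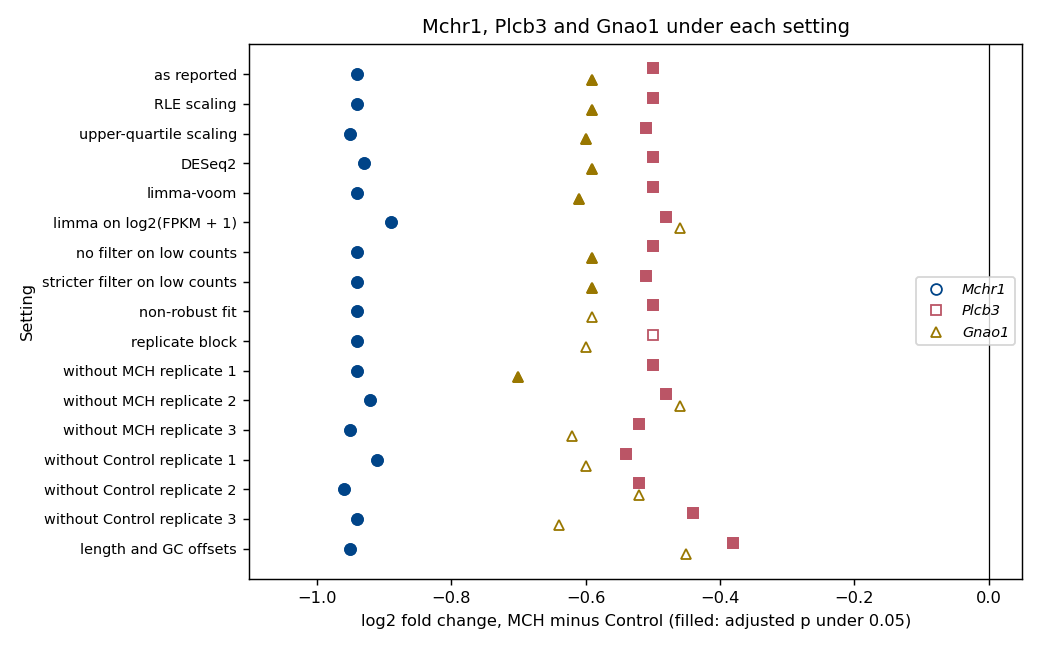
Log2 fold change of Mchr1, Plcb3 and Gnao1, MCH minus Control, in each of the 17 fits, from the reported one to those with another scaling, tool, filter or 1 library left out; filled symbols had an adjusted p under 0.05. Mchr1 is filled in every fit, Plcb3 in all but the one with a replicate block, and Gnao1 is open in 9 fits.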

How the data were processed

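RNA libraries of 3 MCH and 3 Control samples were compared. The deposited table holds the authors' FPKM and unscaled read counts for each gene, and, per the file headers, q-values and p-values from a comparison by the authors. The build is GRCm38, per the submitters' processing notes. Not given in the sources used here are the aligner, counting tool, annotation release, strand setting and the test behind the authors' p-values. A log ratio column was not used because some cells hold no number. The 212 genes marked UP in the authors' deposited table have the higher mean in the columns taken as Control, and the 31 marked DOWN in the MCH columns. Ensembl IDs were matched to GENCODE M21, which held 19250 of 19353.

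The counts went into edgeR 4.0.16 (R 4.3.3) with filterByExpr (minimum count 10, minimum total 15; 13662 genes kept, 5691 left out), TMM scaling, a robust quasi-likelihood fit with group as its only term, two-sided tests and Benjamini-Hochberg adjustment at 0.05. The common biological coefficient of variation was 0.174. Each SE is the size of the unshrunken log2 coefficient over the square root of its F statistic. Intervals are 95% and use the fit's degrees of freedom. Levels, shares and ratios in FPKM were not tested. Promoter windows are from RefSeq.

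The genes and lists were chosen with earlier results of these data known. Named genes are the 9 genes, the 6 nearest to Mchr1 and up to 4 called genes with the smallest p per list. Where none passed in a list, they are the 2 with the highest FPKM. Gnb1, Prkca, Gnal, Rgs8 and the marker genes named were chosen after their values were seen. Replicate numbers come from the titles. Alternatives were DESeq2 1.42.0, limma-voom and limma on log2(FPKM + 1) (limma 3.58.1), upper-quartile and RLE scaling, other filters, a non-robust fit, a replicate block and leaving out each library; length and GC offsets (99.6% of tested genes had both) and M21 exon lengths were added after seeing the data.

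On simulated counts for 13662 genes of the MCH against Control comparison, 200 of them changed, the fit found 92% of 4-fold changes, 86% of 3-fold ones, 80% of 2-fold ones and 14% of 1.5-fold ones. Of its calls, 8.72% were genes simulated without a change.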

Additional observations from a re-analysis of the deposited data

How the results depend on the processing

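Mchr1 was called in all 16 alternatives and Plcb3 in 15, while the 6 genes that missed the threshold missed it in all 16. Leaving out each library gave 256 to 867 genes lower and 65 to 722 higher, 2 to 3 of the 9 genes lower, and 0 to 4 lower and 0 to 3 higher in the 7 route lists. The lists had 0 lower without MCH replicate 2, MCH replicate 3, Control replicate 2 or Control replicate 3, and 0 higher without MCH replicate 3 or Control replicate 2. Over the same fits the log2 fold change of Gna11 ran from -0.044 to 0.006, of Gnai3 from -0.027 to 0.076, of Gnao1 from -0.70 to -0.46 and of Plcb4 from -0.002 to 0.46. DESeq2 called 800 genes higher overall and, in the route lists, 5 lower. The non-robust fit and the length and GC offsets each left 1 route gene higher. Gnao1 was not called with limma on log2(FPKM + 1) (-0.46), the non-robust fit (-0.59) or the offsets (-0.45), and with the offsets Gna11 stood at 0.048 and Gnai3 at -0.048. The labels name no shared source for samples of the same number, so the numbers were not taken to pair them. Samples of the same number did not deviate together (correlations of -0.161, -0.039 and -0.014), against -0.078 to 0.11 for unlike numbers. With 3 libraries per group these correlations cannot exclude pairing. With the replicate number as a block, 151 genes were lower and 28 higher, 1 of the 9 genes was lower, 0 route genes passed in either direction, and Plcb3 (-0.50) and Gnao1 (-0.60) were not called. Per kilobase of M21 exons, in Control and MCH, Gna11 stood at 29.9 and 29.5 CPM, Gnai2 at 107 and 98.5 and Gnaq at 6.06 and 6.52. Plcb1 stood at 0.400 and 0.317, Plcb3 at 12.7 and 8.95, and Plcb4 with MCH at 2.64. These values differ from the FPKM in gene length and in the TMM scaling. The scaling alone moved Plcb3 in Control from 21.09 to 21.03. For the other changes the cause was not tested. Plcb1 had the fewest reads of the 9 genes, 47 to 94 per library.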
